A study of Homo sapiens with 8 samples.

Results

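The genes described here make or handle high-density lipoprotein (HDL) and the other plasma lipoproteins: the apolipoprotein genes APOA1, APOA2, APOA5, APOB, APOC3 and APOE, the lipid exporter gene ABCA1, the HDL-remodelling enzyme genes LCAT and LIPC, and the HDL receptor gene SCARB1. They were taken by name, 10 genes in all, and 9 of them were found on 9 of the 19816 probe sets of the deposited table, which name 17845 genes on a probe set of their own. Of these, 8 had a probe set of their own. LCAT was present only on a probe set shared with SLC12A4, its neighbour on chromosome 16, so that its value belongs to that pair. No probe set carried the name of LIPC, and it is not analysed here. APOA1 had 1 probe set, 7951865, listed for it alone, and no other probe set listed its RefSeq transcript.

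RNA came from HepG2 cells, an established human liver tumour line with hepatocyte features, and was hybridised to Affymetrix human gene arrays. The treatments, of 4 h each, were the solvent DMSO alone (3 arrays), JQ1 at 500 nM (2 arrays) and RVX-208 at 5000 nM (3 arrays), and DMSO was present at 0.1% in every group. JQ1 binds both bromodomains of the BET proteins, readers of acetylated histones, while RVX-208 prefers the second bromodomain and was developed for its effect on APOA1. The series design names 3 samples per condition, and the other JQ1 sample is not analysed here. The doses of the compounds differ, samples of a group are not stated to be separate cultures, and both compounds are compared with the same DMSO arrays.

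Values are log2 signals, so that a difference of 1 is a doubling. The 8 hepatocyte markers examined, such as ALB and AFP, had mean signals of 10.57 to 13.45. The medians of these arrays lay between 7.26 and 7.31. With JQ1 and RVX-208, 0 of the 8 were called by limma, beside 21.8% and 5.21% of all probe sets. The 12 markers of other cell types had mean signals of 3.41 (DCN) to 7.44 (COL1A1) for fibroblasts. Those of blood ran from 3.47 (PTPRC) to 6.99 (CD14) and those of endothelium from 5.38 (VWF) to 8.17 (PECAM1). Of 5 fibroblast markers, limma called 1 lower with JQ1 and 1 with RVX-208, beside 11.5% and 2.56% of all probe sets. The part of these markers in the results was not tested. As a check of the treatment, HEXIM1, a gene known to rise with BET inhibitors, rose by 1.49 ± 0.06 (SE) with JQ1 and by 0.48 ± 0.05 with RVX-208 (limma, adjusted p = 1.43e-05 and 0.00848). MYC fell by 0.67 ± 0.06 with JQ1 and stood at −0.22 ± 0.05 with RVX-208 (limma, adjusted p = 2.13e-04 and 0.0532). SERPINI1, another such reporter, rose by 0.93 ± 0.17 with JQ1 and stood at 0.38 ± 0.15 with RVX-208 (limma, adjusted p = 0.00537 and 0.150).

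As background, apolipoprotein A-I, made by liver and intestine, is the main protein of HDL. ABCA1 loads it with cholesterol and phospholipid from the cell, LCAT esterifies that cholesterol, and SCARB1 takes the esters up again into the liver. Apolipoprotein B, in contrast, is the scaffold of very low-density and low-density lipoproteins, on which the apolipoproteins C-III, A-V and E set how fast triglyceride is released and remnants are cleared.

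JQ1 against DMSO asks how broad BET inhibition alters these transcripts. ABCA1 fell 1.55-fold and APOA5, an activator of triglyceride breakdown, fell 1.23-fold. In bulk RNA, fewer cells of a kind and less transcript per cell cannot be told apart. The other 7 probe sets, among them those of APOA1, APOA2, APOB, APOC3, APOE and SCARB1, did not pass the test. Thus 2 of 9 member probe sets were called lower and 0 higher at an adjusted p under 0.05, against 21.8% of all probe sets called in either direction (11.5% lower and 10.4% higher). The median log2 fold change was 0.05 over the 9 and −0.04 over all probe sets. JQ1 and DMSO arrays did not overlap for 5 of the 9 probe sets, ABCA1, APOA5 and SLC12A4/LCAT below and APOA2 and APOB above, against 50.1% of all probe sets (28.9% below and 21.2% above).

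RVX-208 against DMSO asks the same of the inhibitor that prefers the second bromodomain. ABCA1 fell 1.35-fold and was the only one of the 9 probe sets to be called, against 5.21% of all probe sets (2.56% lower and 2.65% higher). The other 8, APOA1 included, did not pass. The median log2 fold change was 0.01 over the 9 and −0.02 over all probe sets. Arrays did not overlap for ABCA1, below DMSO, and APOA2, above it, against 33.8% of all probe sets (18.4% below and 15.5% above).

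Set directly against each other at these unequal doses, JQ1 and RVX-208 gave 0 of 9 called member probe sets by limma, against 10.4% of all probe sets called (6.39% lower and 3.96% higher with JQ1). At an unadjusted p under 0.05 there were 3 of 9, against 24.2% of all probe sets. Those 3 were ABCA1 and APOA5, lower with JQ1, and APOB, higher with JQ1. The groups did not overlap for these and for SCARB1, against 42.3% of all probe sets (22.1% below and 20.2% above). Of ABCA1, for example, the mean with JQ1 lay 0.20 ± 0.06 below that with RVX-208, with an interval of −0.34 to −0.06 (limma, adjusted p = 0.0802). This difference was called in 3 of 17 alternatives, with adjusted p of 0.0201 to 0.392 over the 17.

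**Figure D1:**
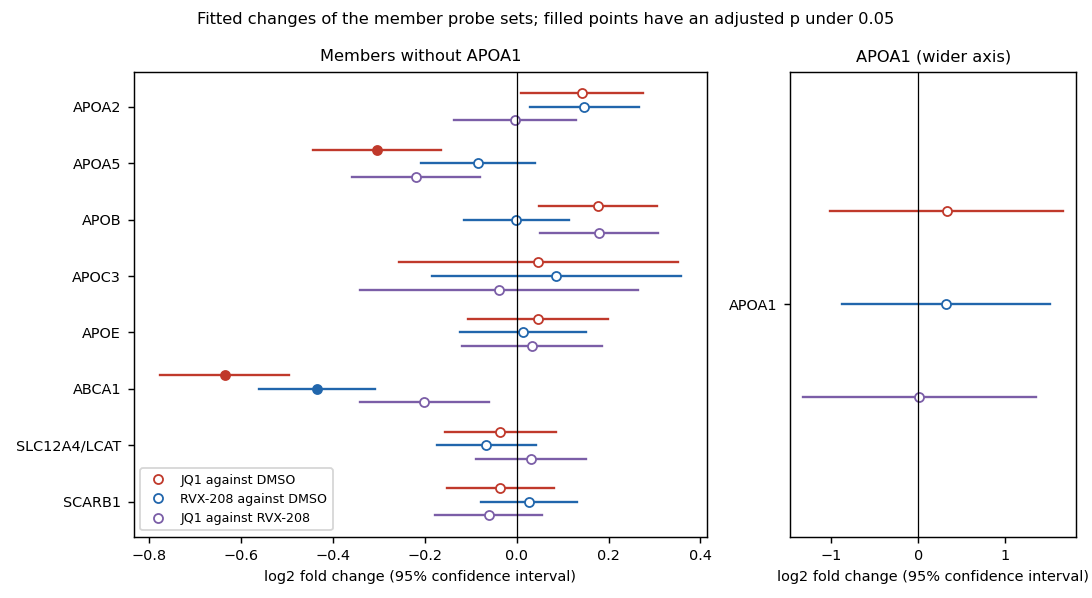
Log2 fold changes (points) and 95% confidence intervals (lines) of the 9 member probe sets in the 3 comparisons, with APOA1 on a wider axis of its own. Filled points mark an adjusted p under 0.05: ABCA1 with JQ1 (−0.64) and RVX-208 (−0.44) and APOA5 with JQ1 (−0.30).

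ABCA1, on probe set 8162940, is the ATP-driven exporter that starts HDL assembly, and its gene is a known target of the oxysterol receptors LXR. Its log2 signal was 10.02, 10.01 and 9.94 on the DMSO arrays, 9.28 and 9.43 on the JQ1 arrays, and 9.59, 9.55 and 9.53 on the RVX-208 arrays. The 3 groups were thus fully apart, with DMSO highest, RVX-208 next and JQ1 lowest. With JQ1 it fell by 0.64 ± 0.06 (SE, n = 2 and 3), with an interval of −0.78 to −0.49 (limma, adjusted p = 3.18e-04). With RVX-208 it fell by 0.44 ± 0.06 (n = 3 and 3), with an interval of −0.56 to −0.31 (limma, adjusted p = 0.0137). Leaving out each array in turn moved the estimate for JQ1 between −0.71 and −0.56 with the call kept each time. For RVX-208 it stayed between −0.46 and −0.42, but the call was lost without RVX-208 replicate 2 (−0.43, adjusted p = 0.0539) or RVX-208 replicate 3 (−0.42, adjusted p = 0.0741). In the authors' deposited table, which tests both compounds together, ABCA1 had an F score of 60.2 and an adjusted p of 7.81e-04.

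The promoters of the called members, ABCA1 and APOA5, are shown because both genes fell with JQ1. Each is the 250 bases before the start of the gene as RefSeq annotates it on GRCh38.p14, 5′ to 3′ on the strand of the gene. Capitals mark matches to any of 5 motifs on either strand. These are the E-box, with the letters CACGTG, and the GC box of promoters, spelled GGGCGG. The TATA box was searched as TATAAA and the inverted or direct CCAAT motif as its own letters. The core of nuclear receptor sites was taken as AGGTCA. Also searched were 2 direct repeats of it, with 1 and 4 bases between, which had no match in these genes. Only exact letters counted, and such repeats occur in 0.0171% and 0.0142% of all windows. A repeat with any other letter would be missed, so their absence does not show that the genes lack such a site.
ABCA1, chr9:104928156-104928405, minus strand: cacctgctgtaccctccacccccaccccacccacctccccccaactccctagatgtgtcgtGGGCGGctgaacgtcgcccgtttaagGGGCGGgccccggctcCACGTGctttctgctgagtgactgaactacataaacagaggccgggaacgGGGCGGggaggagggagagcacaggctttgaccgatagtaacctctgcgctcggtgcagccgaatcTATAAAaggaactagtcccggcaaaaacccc
APOA5, chr11:116792421-116792670, minus strand: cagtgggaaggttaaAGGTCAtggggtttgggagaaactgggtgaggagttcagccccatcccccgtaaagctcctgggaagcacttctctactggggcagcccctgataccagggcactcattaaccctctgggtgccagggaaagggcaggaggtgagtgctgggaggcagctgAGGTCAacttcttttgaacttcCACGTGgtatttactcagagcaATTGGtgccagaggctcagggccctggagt
Both windows hold CACGTG, at 147 to 142 bases before the start of ABCA1 and at 52 to 47 before that of APOA5. This E-box was found in 6.34% of the 35116 promoter windows of the reference. ABCA1 also holds GGGCGG at 3 places (42.6% of windows have at least 1) and TATAAA at 31 to 26 bases before its start (10.7% of windows). APOA5 holds AGGTCA at 2 places (12.1% of windows) and CCAAT on the opposite strand, where the printed letters read ATTGG (32% of windows), and the window of its other annotated start holds AGGTCA alone. The reference held promoter windows for 5 of the 10 genes, the others being APOA2, APOE and LIPC, and CACGTG was found in none of those 3. These letters are a description of the windows, chosen after the values were known.

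**Figure D2:**
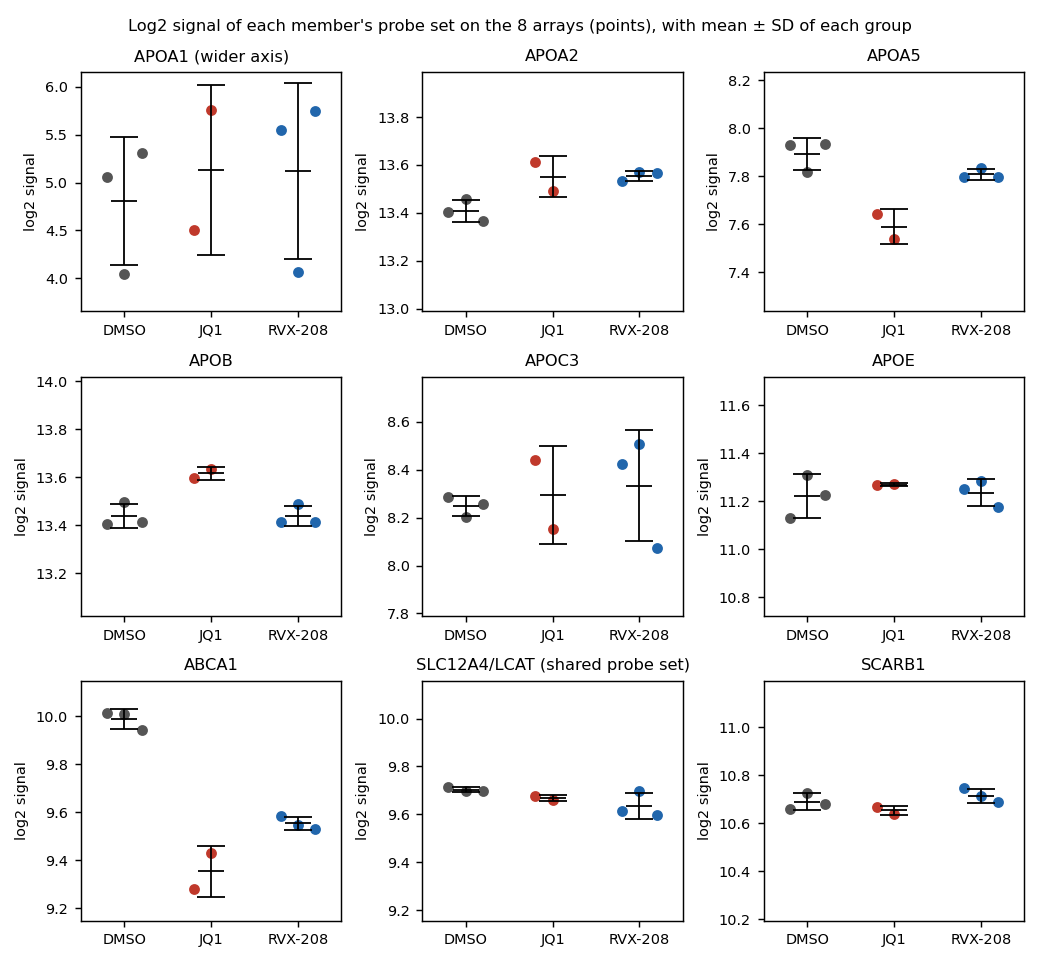
Log2 signal of the 9 member probe sets on each array (points, in order of replicate number) with the mean and SD of each group (black bars). Panels span at least 1 log2 unit, and that of APOA1 is wider; ABCA1 falls from 9.99 in DMSO to 9.55 in RVX-208 and 9.35 in JQ1.

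APOA1 encodes the HDL protein for which RVX-208 was developed. Its signal was 5.06, 4.05 and 5.31 with DMSO, 4.51 and 5.76 with JQ1, and 5.54, 4.07 and 5.75 with RVX-208. Each group held 1 array near 4 to 4.5 and the rest above 5, and the 3 groups overlapped throughout. The group means were 4.81 ± 0.67 (SD, n = 3), 5.13 ± 0.89 (n = 2) and 5.12 ± 0.92 (n = 3). The log2 fold change was 0.33 ± 0.58 with JQ1 and 0.32 ± 0.52 with RVX-208 (limma, adjusted p = 0.734 and 0.724). The intervals ran from −1.01 to 1.67 and from −0.88 to 1.52, so that a fold change between 0.542 and 2.86 for RVX-208 lies within them. A change as large as the rise of HEXIM1 with RVX-208 (0.48) lies inside this interval in either direction, and was not detectable for APOA1 at this spread.

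The spread of the APOA1 probe set stood out. Its SD within groups was 0.82 log2 units, where the median of all probe sets was 0.0862, and 26 of the 19816 probe sets, itself included, had an SD at least as large. Among 2544 probe sets with a mean signal within 0.5 of its own, the median SD was 0.129 and 12 of them, or 0.472%, reached that of APOA1. Its mean signal of 5.01 was above that of only 16.6% of probe sets, and signals of different probe sets do not rank transcript amounts. The estimate changed sign for JQ1 without DMSO replicate 2 (−0.05) or JQ1 replicate 2 (−0.30), and for RVX-208 without DMSO replicate 2 (−0.06). Whether the probe set measures APOA1 transcripts in these cells was not tested.

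**Figure D3:**
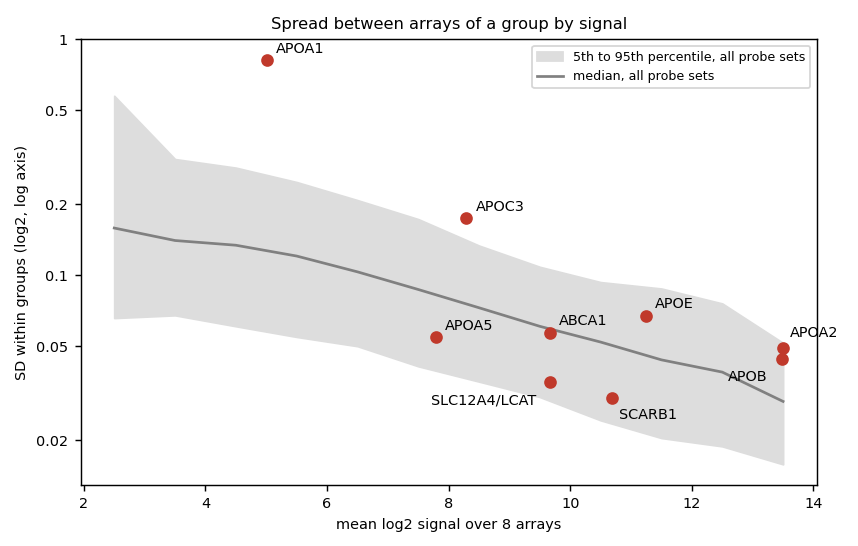
SD of the log2 signal within groups (log axis) against the mean log2 signal, for the 9 member probe sets (red points) and all probe sets in steps of 1 log2 unit (grey band from the 5th to the 95th percentile, line for the median). APOA1 at 0.82 and APOC3 at 0.174 lie above the band.

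APOA2, the second HDL protein, had signals of 13.40, 13.46 and 13.37 with DMSO, 13.61 and 13.49 with JQ1, and 13.53, 13.57 and 13.57 with RVX-208. All arrays of both compounds lay above all DMSO arrays, and the compounds overlapped with each other. The differences from DMSO were 0.14 ± 0.06 with JQ1 and 0.15 ± 0.05 with RVX-208, and neither passed (limma, adjusted p = 0.120 and 0.121). These signals are close to the maximum of the arrays, 13.83 to 13.90. With an intensity trend and robust moderation of the spread, changed together, both were called (adjusted p = 0.00707 and 0.00977), and with arrays centred on housekeeping genes the JQ1 value was −0.03.

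APOB, the scaffold of very low-density lipoprotein, had signals of 13.40, 13.50 and 13.41 with DMSO, 13.60 and 13.64 with JQ1, and 13.41, 13.49 and 13.41 with RVX-208. The JQ1 arrays were above all others, while those of DMSO and RVX-208 overlapped. The JQ1 value of 0.18 ± 0.06 narrowly missed the threshold (limma, adjusted p = 0.0553) and was called when probe sets with a mean signal under 6 were left out (0.0270) or with the intensity trend and robust moderation together (9.32e-04). After housekeeping centring it was 0.0026 (adjusted p = 0.971). The APOB signals, like those of APOA2, are close to the maximum of the arrays. With RVX-208 the value was −0.001 ± 0.05, with an interval of −0.12 to 0.11 (limma, adjusted p = 0.992). JQ1 lay 0.18 ± 0.06 above RVX-208 (limma, adjusted p = 0.0859).

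APOA5, on probe set 7951853, encodes apolipoprotein A-V, a liver protein that promotes triglyceride breakdown. Its signal was 7.93, 7.82 and 7.93 with DMSO, 7.64 and 7.54 with JQ1, and 7.80, 7.83 and 7.80 with RVX-208. The JQ1 arrays were below all others, and DMSO and RVX-208 overlapped. APOA5 fell by 0.30 ± 0.06 with JQ1, with an interval of −0.44 to −0.17 (limma, adjusted p = 0.00860), and the call was lost without JQ1 replicate 2 (−0.25, adjusted p = 0.0676). With RVX-208 it stood at −0.08 ± 0.05 (limma, adjusted p = 0.338), and the direct difference of −0.22 ± 0.06 missed the threshold (limma, adjusted p = 0.0569). That difference was called in 3 of 17 alternatives: after housekeeping centring (−0.30, adjusted p = 0.0309), with the signal minimum of 6 (0.0246) and with the intensity trend and robust moderation (0.0460).

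APOA4, APOC3 and APOA1 lie beside APOA5 on chromosome 11, in that order. APOC3, an inhibitor of triglyceride breakdown, had signals of 8.28, 8.20 and 8.26 with DMSO, 8.44 and 8.15 with JQ1, and 8.42, 8.51 and 8.07 with RVX-208. The treated arrays lay on either side of the DMSO arrays. The values of 0.05 ± 0.13 with JQ1 and 0.09 ± 0.12 with RVX-208 did not pass (limma, adjusted p = 0.839 and 0.668), with intervals of −0.26 to 0.35 and −0.19 to 0.36. APOA4, which was not among the 10 genes, stood at −0.01 ± 0.20 and −0.19 ± 0.18 (limma, adjusted p = 0.987 and 0.535).

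APOE, the ligand by which remnants are cleared, had signals of 11.13, 11.31 and 11.23 with DMSO, 11.27 and 11.27 with JQ1, and 11.25, 11.28 and 11.18 with RVX-208. Treated arrays fell within the range of the DMSO arrays. The intervals of its log2 fold change were −0.11 to 0.20 for JQ1 and −0.12 to 0.15 for RVX-208 (limma, adjusted p = 0.663 and 0.902). APOC1, its neighbour on chromosome 19, stood at 0.07 ± 0.09 and 0.21 ± 0.08 (limma, adjusted p = 0.601 and 0.129).

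SCARB1, the receptor for selective uptake of HDL cholesterol, had signals of 10.66, 10.73 and 10.68 with DMSO, 10.67 and 10.64 with JQ1, and 10.75, 10.71 and 10.69 with RVX-208. Each compound overlapped with DMSO, and its SD within groups of 0.0302 was the smallest of the 9 probe sets. The intervals were correspondingly narrow, −0.15 to 0.08 for JQ1 and −0.08 to 0.13 for RVX-208 (limma, adjusted p = 0.666 and 0.744). The probe set shared by SLC12A4, a potassium-chloride cotransporter gene, and LCAT had signals of 9.72, 9.70 and 9.70 with DMSO, 9.68 and 9.66 with JQ1, and 9.62, 9.70 and 9.60 with RVX-208. The values of −0.04 ± 0.05 and −0.07 ± 0.05 did not pass (limma, adjusted p = 0.674 and 0.386), and the 2 transcripts cannot be told apart there.

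The wider set of lipoprotein genes held 93 genes in 4 lists, of which 77 had a probe set of their own and 16 are not analysed here. With JQ1, 17 of the 77 were called lower and 4 higher, or 21 in all, beside 21.8% of all probe sets (11.5% lower and 10.4% higher). With RVX-208, 2 were called lower and 0 higher, beside 5.21% of all probe sets (2.56% lower and 2.65% higher). The medians over the 77 were −0.07 with JQ1 and 0.01 with RVX-208, beside −0.04 and −0.02 over all probe sets. Between the compounds 9 were lower and 3 higher with JQ1, beside 10.4% of all probe sets (6.39% lower and 3.96% higher).

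Among 16 other apolipoprotein genes, 3 fell with JQ1 and 0 rose, beside 11.5% of all probe sets called lower and 10.4% higher. All 3 were of the APOL family, whose first member gives serum its activity against trypanosomes. APOL2 had signals of 7.81, 7.74 and 7.71 with DMSO, 6.96 and 7.05 with JQ1, and 7.48, 7.55 and 7.67 with RVX-208. The 3 groups did not overlap, though any 2 groups were without overlap for 33.8% to 50.1% of all probe sets. With RVX-208 APOL2 stood at −0.19 ± 0.06 (limma, adjusted p = 0.107). It fell by 0.75 ± 0.07 with JQ1 (limma, adjusted p = 2.76e-04). APOL6 fell by 0.66 ± 0.11 and APOL1 by 0.33 ± 0.08 (limma, adjusted p = 0.00335 and 0.0196), the latter not called without JQ1 replicate 1 (adjusted p = 0.135). The fourth family member in the list, APOL3, stood at −0.16 with JQ1 (limma, adjusted p = 0.353), and no further APOL gene was listed. With RVX-208 none of the 16 was called by limma, beside 5.21% of all probe sets. Directly compared, JQ1 lay below RVX-208 by −0.74 ± 0.11 for APOL6, −0.56 ± 0.07 for APOL2 and −0.43 ± 0.08 for APOL1 (limma, adjusted p = 0.00460, 0.00258 and 0.0129). The call for APOL1 was again lost without JQ1 replicate 1 (adjusted p = 0.0926).

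Of 19 genes of lipid loading, assembly and remodelling, 2 fell and 2 rose with JQ1, all by less than 0.3 log2 units. Of all probe sets, 11.5% were called lower and 10.4% higher. ABCG8, the partner of ABCG5 in sterol export into bile, fell by 0.28 ± 0.08, and SOAT2, which esterifies cholesterol in hepatocytes, fell by 0.22 ± 0.05 (limma, adjusted p = 0.0374 and 0.0178). PCTP, a phosphatidylcholine carrier, rose by 0.25 ± 0.07, and P4HB, a subunit of the transfer protein that lipidates apolipoprotein B, rose by 0.19 ± 0.06 (limma, adjusted p = 0.0326 and 0.0405). None of these calls held in every fit that left 1 array out. P4HB was called in 0 of 8 such fits, those without an RVX-208 array included, and stood at 0.02 after housekeeping centring. PCTP was called without DMSO replicate 1 or RVX-208 replicate 1 alone (0.0501 to 0.137 in the other 6), and stood at 0.08 after housekeeping centring (adjusted p = 0.388). ABCG8 was lost without JQ1 replicate 1 or 2, DMSO replicate 1 or RVX-208 replicate 3 (0.0577 to 0.194), and SOAT2 without JQ1 replicate 1 or 2 or DMSO replicate 2 (0.0558 to 0.0910). MTTP, the catalytic partner of P4HB, was lower with JQ1 than with RVX-208, by −0.27 ± 0.06 (limma, adjusted p = 0.0206), a call lost without JQ1 replicate 1 or any RVX-208 array (0.0601 to 0.132). ABCG1, which like ABCA1 exports cholesterol to HDL, stood at −0.03 ± 0.08 with JQ1 and −0.20 ± 0.07 with RVX-208 (limma, adjusted p = 0.797 and 0.126).

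Of 17 receptor and uptake genes, 2 fell and 0 rose with JQ1, beside 11.5% of all probe sets called lower and 10.4% higher. The fatty acid and lipoprotein receptor gene CD36 fell by 0.30 ± 0.06 and LRP8, an apolipoprotein E receptor gene, fell by 0.24 ± 0.05 (limma, adjusted p = 0.00874 and 0.0130). CD36 was not called without JQ1 replicate 1 (0.0549), nor LRP8 without either JQ1 array (0.0647 and 0.0661). LRP1, the remnant receptor gene, was 0.37 ± 0.09 higher with JQ1 than with RVX-208 (limma, adjusted p = 0.0391), with values of 0.08 and −0.28 against DMSO that were not called. This difference was called in 1 of 8 fits without 1 array, that without DMSO replicate 2, with adjusted p of 0.0523 to 0.203 in the other 7.

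**Figure D4:**
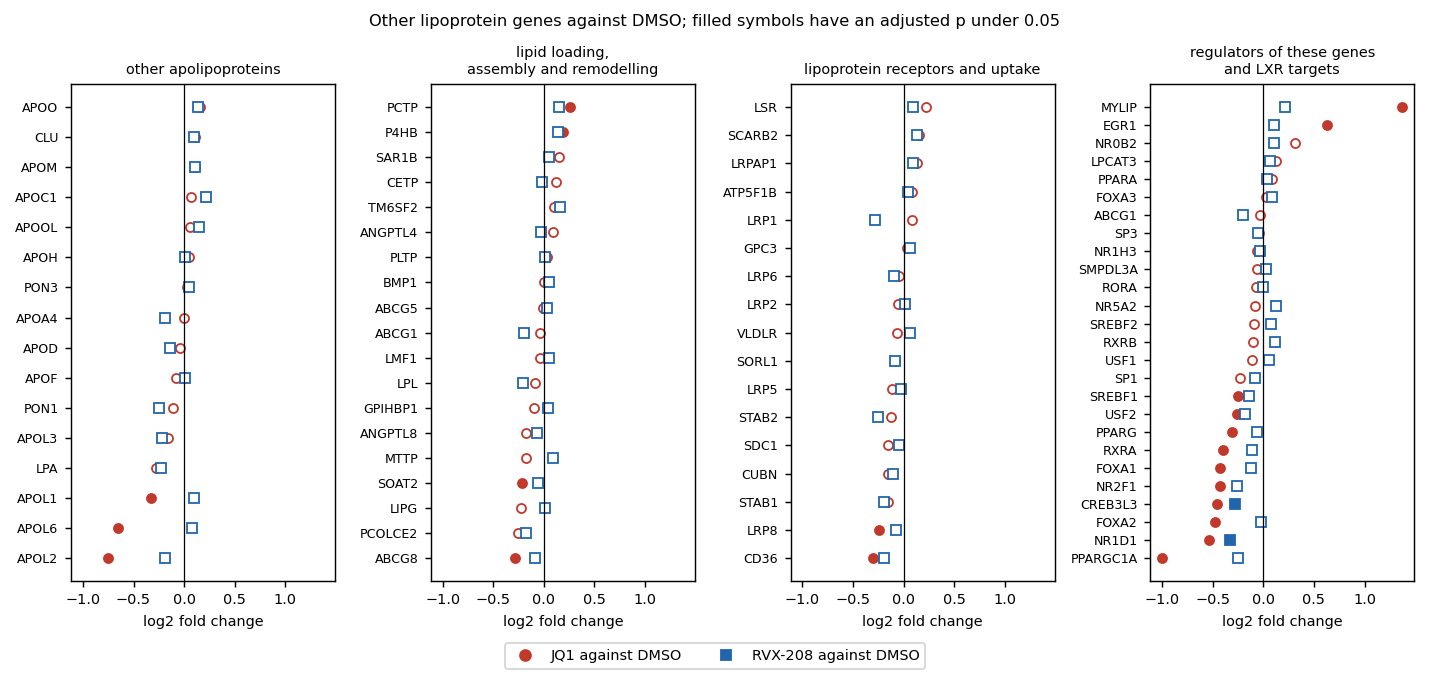
Log2 fold change against DMSO of the genes of the 4 lists with JQ1 (circles) and RVX-208 (squares), sorted by the JQ1 value. Filled symbols mark an adjusted p under 0.05: 21 of 77 genes with JQ1, from PPARGC1A, which fell by 1.00, to MYLIP, which rose by 1.37, and 2 with RVX-208, NR1D1 (−0.33) and CREB3L3 (−0.28).

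Of 26 regulators and LXR targets, 10 fell and 2 rose with JQ1, beside 11.5% of all probe sets called lower and 10.4% higher. MYLIP, an LXR-induced ubiquitin ligase that degrades lipoprotein receptors, had signals of 7.86, 7.68 and 7.61 with DMSO, 9.08 and 9.09 with JQ1, and 8.08, 7.83 and 7.89 with RVX-208. It rose by 1.37 ± 0.10 with JQ1 (limma, adjusted p = 7.43e-05), while ABCA1, also an LXR target, fell. Whether LXR had a part in either change was not tested. The same list held 4 further measured genes known as LXR targets. Others stand in the lists above and are not gathered here. The 4 were SREBF1, which fell by 0.25 ± 0.06 with JQ1, and LPCAT3 (0.13 ± 0.05), SMPDL3A (−0.07 ± 0.08) and ABCG1, which were not called. The adjusted p of SREBF1 was 0.0212, and its call was lost without either JQ1 array or DMSO replicate 2 or 3 (0.0571 to 0.0925). The LXR gene NR1H3 stood at −0.06 ± 0.07 (limma, adjusted p = 0.589), and its partner RXRA fell by 0.40 ± 0.06 (limma, adjusted p = 0.00173). The other LXR gene, NR1H2, had no probe set of its own and is not analysed here.

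PPARGC1A, a coactivator of fasting genes, had signals of 8.63, 8.67 and 8.64 with DMSO, 7.71 and 7.59 with JQ1, and 8.49, 8.30 and 8.42 with RVX-208. All 3 groups were apart, though any 2 groups were apart for 33.8% to 50.1% of all probe sets. With RVX-208 PPARGC1A stood at −0.25 ± 0.06, which was not called (limma, adjusted p = 0.0606). It fell by 1.00 ± 0.07 with JQ1 (limma, adjusted p = 7.93e-05). NR1D1, a clock repressor known to act on APOC3, fell by 0.54 ± 0.07, and the liver pioneer factor gene FOXA2 fell by 0.48 ± 0.07 (limma, adjusted p = 0.00119 and 0.00242). The immediate early gene EGR1 rose by 0.62 ± 0.07 (limma, adjusted p = 4.69e-04). CREB3L3, an activator of APOA5 and APOC2 in mice, fell by 0.46 ± 0.06 (limma, adjusted p = 0.00109). The calls of MYLIP, RXRA, PPARGC1A, NR1D1, FOXA2, EGR1 and CREB3L3 with JQ1 were kept in all 8 fits without 1 array.

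With RVX-208, NR1D1 fell by 0.33 ± 0.06 and CREB3L3 by 0.28 ± 0.05 (limma, adjusted p = 0.0299 and 0.0290), and these were the regulators called. NR1D1 signals were 7.89, 7.72 and 7.74 and those of CREB3L3 7.91, 7.92 and 7.90 with RVX-208, below DMSO arrays at 8.05 to 8.16 and 8.14 to 8.25. NR1D1 was not called without any 1 of the DMSO arrays or RVX-208 replicate 2 or 3 (0.0625 to 0.110), nor CREB3L3 without any 1 of the DMSO or RVX-208 arrays (0.0580 to 0.105). Between the compounds, JQ1 lay above RVX-208 for MYLIP (1.16 ± 0.10) and EGR1 (0.52 ± 0.07) (limma, adjusted p = 5.10e-04 and 0.00259). It lay below for PPARGC1A (−0.75 ± 0.07), FOXA2 (−0.45 ± 0.07) and FOXA1 (−0.30 ± 0.06) (limma, adjusted p = 7.46e-04, 0.00710 and 0.0227). The FOXA2 difference was not called without JQ1 replicate 2 (0.0561), nor that of FOXA1 without JQ1 replicate 2 or RVX-208 replicate 1 or 2 (0.0617 to 0.139).

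To place the called members among all genes, the genes with the most similar pattern were sought by the root mean square (RMS) difference over the 8 arrays of log2 signals from their DMSO mean. Closest to ABCA1 were CD22 (RMS difference 0.0599), AKR1D1 (0.0607), GRAMD1B (0.0628), JAG1 (0.0696) and SLC51B (0.0705). AKR1D1 is a reductase of bile acid synthesis, SLC51B a bile acid exporter subunit, GRAMD1B a sterol carrier between membranes, JAG1 a Notch ligand and CD22 a lectin known from B cells. These 5 genes stood at −0.62 to −0.57 with JQ1 and −0.50 to −0.43 with RVX-208. Closest to APOA5 were MCM2 (0.0271), a replication helicase subunit, the zinc finger gene MAZ (0.0303), ADAP1 (0.0308), AKAP1 (0.0335), an anchor of protein kinase A at mitochondria, and LRRC42 (0.0343). They stood at −0.31 to −0.26 with JQ1 and −0.08 to −0.06 with RVX-208. The genes were picked for likeness, so their values describe these arrays only.

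**Figure D5:**
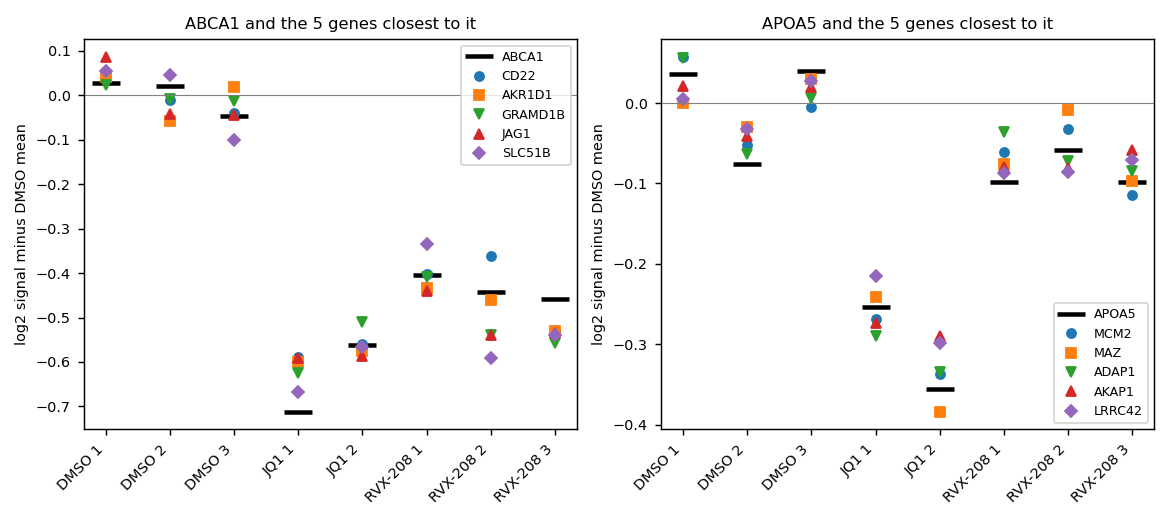
Log2 signal minus the DMSO mean on each of the 8 arrays for ABCA1 and APOA5 (black dashes) and the 5 genes with the smallest RMS difference from each (coloured symbols). The ABCA1 set is low with both compounds and the APOA5 set mainly with JQ1.

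Directions are relative to the normalisation by the authors. Centring arrays on 9 housekeeping genes shifted the median over all probe sets by −0.18 for JQ1 and −0.10 for RVX-208 (log2). Under it ABCA1 stood at −0.81 and −0.53 and APOA5 at −0.48 with JQ1, while SCARB1 and SLC12A4/LCAT were also called lower with JQ1, both at −0.21 (limma, adjusted p = 0.0207 and 0.0212).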

How the data were processed

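The authors deposited log2 values per probe set, made by RMA per the submitters' processing notes, with R 2.15.3 and limma 3.14.4; the filter that left 19816 probe sets is not given in the sources used here. Their second deposited table holds log2 fold changes, an F score and p-values, and its fold changes equalled differences of group means within 1e-04 for 19815 probe sets. Genes were named from the platform annotation: 17859 probe sets had 1 gene, 997 several and 960 none, and symbols were updated by gene ID.

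A mean per group was fitted over all 8 arrays and all 19816 probe sets with limma 3.58.1 in R 4.3.3 (lmFit, eBayes, 8.25 degrees of freedom). Tests were two-sided and Benjamini-Hochberg adjusted over all probe sets, with a call at an adjusted p under 0.05 and no fold minimum. Errors are SE unless given as SD, and intervals are 95%. The number of arrays limits the precision, and p-values reflect only how these samples vary, which may be technical. The fit was checked on simulated data. Figures used matplotlib 3.10.9.

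The members and lists were chosen with earlier results of these data known. Named are all members, up to 3 highest and 3 lowest called genes per list and comparison, HEXIM1, SERPINI1 and MYC, and the 5 genes closest to each called member. Other genes (APOA4, APOC1, APOL3, ABCG1, NR1H3, RXRA, SREBF1, LPCAT3, SMPDL3A, CREB3L3 with JQ1) were named after their values were seen. Alternatives were cyclic loess, housekeeping centring, a signal minimum of 6, 1 probe set per gene, only the compared groups, an intensity trend with robust moderation, the replicate number as a block, other thresholds, and leaving out each array.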

Additional observations from a re-analysis of the deposited data

How the results depend on the processing

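The number of arrays, 3, 2 and 3, limits the precision, most of all for APOA1 with its wide spread between replicates. Calls for ABCA1 with JQ1 were kept in all 17 alternatives, and those for APOA5 with JQ1 in 16 and for ABCA1 with RVX-208 in 13. These 17 alternatives are not separate checks. The other thresholds reuse the reported fit. For RVX-208 against DMSO, leaving out either JQ1 array gives the same fit as using only the compared groups. The cause of the changes below was not tested. Of the 9 member probe sets, with JQ1 4 were called after housekeeping centring, all lower, beside 48.6% of all probe sets. With the intensity trend and robust moderation, which were changed together, 2 were called higher and 2 lower, beside 26.5%. Leaving out 1 DMSO or RVX-208 array gave 2 called, beside 17.8% to 20.2%. Without JQ1 replicate 2, which leaves 1 JQ1 array, APOA5 stood at −0.25. With RVX-208, 1 was called higher and 1 lower with the trend and robust moderation, beside 12% of all probe sets. At an adjusted p under 0.01 there were 0, beside 0.187%, and 0 to 1 without 1 DMSO or RVX-208 array. Between the compounds, 2 were called after housekeeping centring, 3 of the 8 left by the signal minimum, 3 with the trend and robust moderation and 0 in every fit without 1 array. Over all probe sets the first 3 of these settings called 12.3%, 20.5% and 15.5% between the compounds.

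Of the 77 wider genes, 40 were called with JQ1 after housekeeping centring and 13 at an adjusted p under 0.01, and 14 to 20 without 1 array. With RVX-208, 16 were called after housekeeping centring, 8 of the 65 left by the signal minimum, 8 with the trend and robust moderation, 0 at an adjusted p under 0.01 and 0 to 2 without 1 array. Between the compounds, 6 were called at an adjusted p under 0.01 and 7 to 11 without 1 array. Over all probe sets, the calls with JQ1 rose from 4322 to 9626 after housekeeping centring, and those with RVX-208 from 1032 to 3706. With RVX-208 they were 2055 with the signal minimum, 2386 with the trend and robust moderation, 37 at an adjusted p under 0.01, 668 with only the compared groups and 52 to 668 without 1 array. With JQ1 they were 2261 at an adjusted p under 0.01, 2644 without JQ1 replicate 1 and 2675 without JQ1 replicate 2. Between the compounds they were 2051 in the reported fit, 754 at an adjusted p under 0.01, 1029 with the block and 813 to 2002 without 1 array.

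The labels number the samples in each group, but samples with the same number did not consistently deviate together. DMSO and RVX-208 arrays of the same number correlated at −0.031, 0.013 and −0.127 across probe sets. Those of DMSO and JQ1 correlated at 0.011 and 0.079, and those of JQ1 and RVX-208 at 0.05 and −0.007. The correlated values are deviations from the group mean, which are equal and opposite for the 2 JQ1 arrays. A correlation with JQ1 replicate 1 is thus the negative of that with JQ1 replicate 2, so they are not separate values. Not every array correlated best with its own number. APOA1 was lowest on replicate 2 of DMSO (4.05) and RVX-208 (4.07) and on replicate 1 of JQ1 (4.51). With the replicate number as a block, 0 member probe sets and 0 wider genes were called with RVX-208, where 1 of all probe sets was called in place of 1032 (ABCA1 at −0.44, adjusted p = 0.0622). The block left 7 wider genes called between the compounds, and 3150 of all probe sets with JQ1.

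Some values that were not called changed sign. With housekeeping centring these were, with JQ1, APOA2 (−0.033), APOC3 (−0.13) and APOE (−0.13), with RVX-208, APOC3 (−0.013), APOE (−0.085) and SCARB1 (−0.073), and between the compounds APOA1 (−0.064), APOE (−0.043) and SLC12A4/LCAT (−0.045). With cyclic loess they were APOE (−0.021) and SCARB1 (−0.011) with RVX-208 and APOA1 (−0.0090) between the compounds, and with the block APOC3 with JQ1 (−0.016). Without 1 array, values ranged from −0.30 to 0.96 for APOA1 and −0.097 to 0.19 for APOC3 with JQ1, and from −0.062 to 0.84 for APOA1, −0.026 to 0.029 for APOB and −0.033 to 0.058 for APOE with RVX-208. Between the compounds they ranged from −0.62 to 0.64 for APOA1, −0.064 to 0.055 for APOA2 and −0.18 to 0.11 for APOC3.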
